A study of Mus musculus with 3 samples.

Results

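The lineage Sox genes are 10 members of the Sox family chosen by name, namely Sox1, Sox7, Sox8, Sox9, Sox10, Sox11, Sox14, Sox17, Sox18 and Sox21. Each was examined within 2 kb of its transcript starts, and over the gene with 10 kb of flank, in lists of regions enriched in ChIP-Seq of mouse embryonic stem cells (ESCs). Of the 10 genes, 9 had a gene model in the GENCODE vM1 annotation of the mm9 assembly, out of 22350 protein-coding genes examined in the same way. Sox1 had no model there. Its promoter sequence from RefSeq matched the mm9 genome at 1 place, and Sox1 was placed by that match and is described apart from the counts over 9 genes.

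The data comprised 3 ChIP-Seq libraries, 1 per group, made to ask where an acidic patch mutant of the histone variant H2A.Z lies compared with the wild-type variant and with Polycomb chromatin. The H2A.Z WT group expressed a YFP-tagged wild-type H2A.Z and the H2A.Z AP3 group a YFP-tagged H2A.Z with the substitutions G92N, D97N and S98K, which place residues of H2A into its acidic patch. Both transgenes were driven by a CMV promoter in a doxycycline-inducible lentiviral vector, both lines were induced with 1 µg/ml doxycycline and sorted for YFP, and both also carried a hairpin against the untranslated region of endogenous H2A.Z. Immunoprecipitation in both used an anti-GFP antibody and so reports the tagged protein only. For the third group, chromatin of cells labelled wild type was precipitated for histone H3 trimethylated at lysine 27 (H3K27me3). The labels give V6.5, a male 129SvJae and C57BL/6 hybrid line, as the strain of all samples, while their treatment text has the transgenes introduced into KH2 ESCs. Cells were grown on feeder fibroblasts that were left out for the final passage, and nothing states whether a line was 1 clone.

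Each library was given as a list of region coordinates at a P threshold of 1e-9 and a further list at 1e-12, with no heights or reads, so that sequencing depth is unknown. Values below are from the 1e-9 lists unless stated. The H2A.Z WT list held 78359 regions, the H2A.Z AP3 list 14599 and the H3K27me3 list 16970. With 1 library per group there was no replicate error against which to set any difference, so no test was made, and fewer or shorter regions in the mutant list cannot be told apart from a shallower library. The H2A.Z AP3 list also held an excess of calls on chromosomes 6 and 8, where 43.6% and 50.3% of genes had a region within 2 kb of a start, against 23.2% of all genes. H2A.Z WT was also called at a larger share of genes on chromosome 8 than on any other, 77.5% against 61.7% of all. Of the lineage Sox genes only Sox1 lies on either chromosome. Pou5f1, Nanog and Sox2, which maintain pluripotency and are active in ESCs, had no region within 2 kb of their starts in any list at either threshold.

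Sox proteins are transcription factors that bind DNA through an HMG box, and their subfamilies direct the formation of neural, neural crest, cartilage, endoderm and vascular cells. Most of the genes studied here are silent or low in ESCs and are switched on in particular lineages. Silent developmental genes in ESCs commonly lie in bivalent chromatin, which carries H3K27me3, deposited by Polycomb complexes, together with marks of active promoters, and H2A.Z is known to be placed at such promoters.

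H2A.Z WT was called at every lineage Sox gene, H3K27me3 at all but 1, and the mutant at most of them. A H2A.Z WT region lay within 2 kb of a transcript start in 9 of 9 genes, against 61.7% of all protein-coding genes. H3K27me3 was called at 8 of 9, against 18.2% of all, the exception being Sox11. The mutant was called at 6 of 9, against 23.2% of all, and was not called at Sox8, Sox11 and Sox17. Sox14, Sox21, Sox9, Sox10, Sox7 and Sox18 thus carried all 3, a combination found at 7.9% of genes. Sox8 and Sox17 carried H2A.Z WT and H3K27me3 without the mutant, as did 9.39% of genes. H2A.Z WT and H3K27me3 were called together, with or without the mutant, at 17.3% of all genes. Of these 3864 genes 1766 also carried the mutant, as did 6 of the 8 lineage Sox genes with both. The share of 23.2% over all genes is thus not one over genes marked alike.

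**Figure D1:**
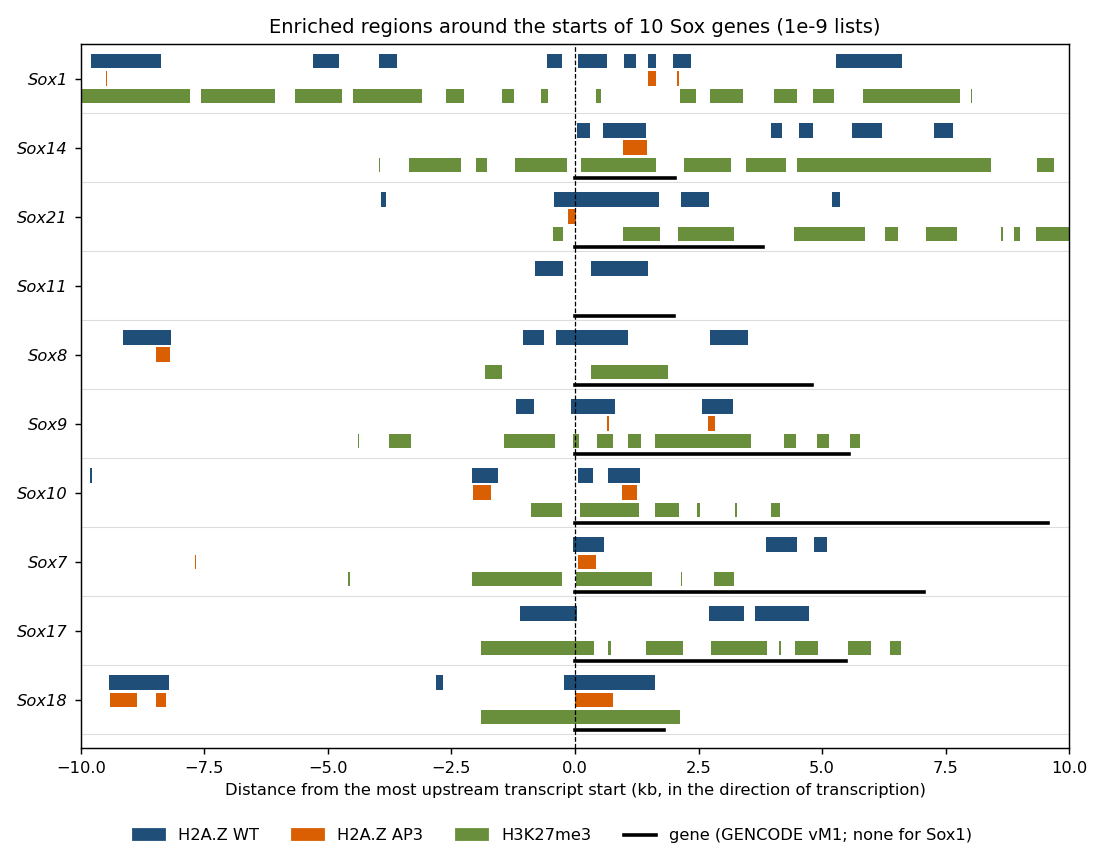
Regions of the 1e-9 lists around the most upstream transcript start of each gene, with distance in kb on the horizontal axis, positive in the direction of transcription, and a row for each library. H2A.Z WT lies at or within 2 kb of every start, H3K27me3 covers more bases than H2A.Z WT at all genes except Sox8 and Sox11, and H2A.Z AP3 near the starts occupies short stretches mostly downstream.

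The mutant regions nearest to the starts fell in the genes' own coding sequence more often than at the start. Of the 8 H2A.Z AP3 regions within 2 kb of a start, 6 had their midpoint in a coding exon of the same gene, in Sox14, Sox9 (2 regions), Sox10, Sox7 and Sox18. Over all genes, 18.1% of the H2A.Z AP3 regions within 2 kb of a start had a midpoint in a coding exon of any gene. Of the 17 H2A.Z WT regions within 2 kb of the starts of the Sox genes, 9 did so (all genes, 21.1%), and of the 24 H3K27me3 regions 4 did so (all genes, 9.86%). Several of these genes are short, with most of their coding sequence within 2 kb of the start. The 30 bases of mm9 at the centre of each of the 8 regions are shown because they place the mutant within the gene. They are written on the strand of the gene, 5′ to 3′, with CpG dinucleotides in capitals.
Sox14, coding exon, chr9:99775436-99775465, minus strand: gccccctgtCGcctacatcctcttcccagg
Sox9, first coding region, chr11:112644186-112644215, plus strand: CGgctccagcaagaacaagccacaCGtcaa
Sox9, second coding region, chr11:112646286-112646315, plus strand: CGacCGCGggccaCGtgtggatgtCGaagc
Sox10, coding exon, chr15:78993811-78993840, minus strand: caCGtcaagaggcccatgaaCGccttcatg
Sox7, coding exon, chr14:64562736-64562765, plus strand: catgaatgccttcatggtgtgggccaagga
Sox18, coding exon, chr2:181405948-181405977, minus strand: aaCGccttcatggtgtgggCGaaggaCGag
Sox21, upstream of the start, chr14:118636298-118636327, minus strand: ggggaCGggaggaggctcCGctggtccctc
Sox10, upstream region, chr15:78996786-78996815, minus strand: gtagtggcaggggactagagaggggacCGg

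The centres in Sox7 and Sox18 shared a run of 17 bases, part of which is also at the centre in Sox10. It belongs to the coding sequence of the HMG box, the part that Sox genes have most in common. The run was found in these centres and then searched for, with at most 1 mismatch, on both strands of every protein-coding gene. It was present in 16 of 22350 genes (0.0716%), and without a mismatch in 7 (0.0313%). Of the 9 lineage Sox genes 8 held it, each once and in a coding exon, 5 of them without a mismatch, and Sox14 did not hold it. The forms found are shown with the base that differs from the searched run in capitals.
Sox7, Sox18, Sox8, Sox9 and Sox10: gccttcatggtgtgggc
Sox21, Sox11 and Sox1: gccttcatggtgtggTc
Sox17: gccttTatggtgtgggc

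All 8 matches lay within a H2A.Z WT region and 7 within a H3K27me3 region, Sox11 being the exception for the latter. H2A.Z WT was called at every gene and H3K27me3 was missing only at Sox11. A call within 2 kb of a start does not by itself place the match in a region. In Sox17 the match lay 3234 bp downstream of the most upstream start, beyond that window. No share over other coding sequence stands beside the 2 counts of matches, so whether they are particular to the run was not tested. A H2A.Z AP3 region held the match in 3 genes, at chr15:78993803-78993819 in Sox10, chr14:64562743-64562759 in Sox7 and chr2:181405958-181405974 in Sox18. The hits in Sox7 and Sox18 were given in advance, since the run was taken from the centres of those regions. That in Sox10 was given in part. The count is therefore no separate result about the run at either threshold. In Sox9 the first mutant region ended 4 bp before the match at chr11:112644229-112644245. In Sox21 the mutant region was 1408 bp away, and Sox8, Sox11 and Sox17 had none within 2 kb of a start. At 1e-12 the match also lay in a mutant region in 3 genes, Sox10, Sox18 and Sox17, the last at chr1:4483252-4483268. Because these letters recur in several Sox genes, reads from this stretch could be harder to assign to 1 gene, which could not be examined without the reads.

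Sox14 and Sox21 form the SoxB2 group, which restrains or shapes the neuronal programmes that SoxB1 proteins begin. Sox14 (chr9:99774644-99776663, minus strand) had 1150 bp of its 4428-bp window in H2A.Z WT regions, 500 bp in mutant regions and 3003 bp in H3K27me3. No H2A.Z WT base lay upstream of its most upstream start. The single mutant region of Sox14 lay in the coding exon, shared 475 bp with a H2A.Z WT region and was absent from the 1e-12 list. Sox14 also lay in 1 of the longest H3K27me3 domains among these genes: with regions joined over gaps of up to 1 kb, its domain spanned 14400 bp, against a median of 650 bp over 8348 domains, and ranked 73rd in length. Of the H2A.Z WT bases in the gene and its flanks, 97.1% lay in H3K27me3.

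Sox21 (chr14:118632454-118636252, minus strand), which is expressed in neural progenitors, had the most H2A.Z WT within 2 kb of its starts. Its window held 2675 bp of wild-type coverage, 175 bp of mutant coverage and 1816 bp of H3K27me3. A single H2A.Z WT region of 2125 bp covered the start and ran 1702 bp into the single exon. The mutant region was centred at -61 bp relative to the start and was 75 bp long at 1e-12. Here the mutant shared no base with H3K27me3, which was absent from the start itself. The start of the lincRNA Gm4675, on the opposite strand, lay 150 bp from that of Sox21, so that regions at the Sox21 start cannot be assigned to 1 of the genes. Of 3 H3K27me3 domains within 2 kb of Sox21, the longest spanned 8200 bp and did not hold the start.

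Sox11, the SoxC member, acts in neural progenitors and maturing neurons and stood apart from the rest. Its gene model (chr12:28025562-28027574, minus strand) and 10 kb on each side held no H3K27me3 and no H2A.Z AP3 region at either threshold. Over all genes, 24.9% had a H3K27me3 region and 39.3% a H2A.Z AP3 region in that span. H2A.Z WT covered 1700 bp in 2 regions, of 1150 bp in the coding exon and 550 bp upstream, but only 525 bp at 1e-12, the largest loss of H2A.Z WT between thresholds among the 9 genes. The Sox11 start was also the richest in CpG, with 109 CpG within 500 bp, against a median of 75 over the 9 genes and 41 over all genes. The 2 H2A.Z WT regions of Sox11 held 112 and 113 CpG per kb, more than any other H2A.Z WT region of the 9 genes.

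The SoxE genes Sox8, Sox9 and Sox10 act in neural crest and its derivatives, with Sox9 also needed for cartilage and the testis and Sox10 for glia. Sox8 (chr17:25702837-25707631, minus strand) had 1900 bp of its window in H2A.Z WT regions, no mutant region and 1900 bp in H3K27me3. Sox9 (chr11:112643538-112649074, plus strand) had 1875 bp of wild-type coverage, 200 bp of mutant coverage and 3925 bp of H3K27me3 in a longer window of 6505 bp. Sox10 (chr15:78985343-78994920, minus strand) had 1395 bp of wild-type coverage, 595 bp of mutant coverage and 2210 bp of H3K27me3. H2A.Z WT thus covered between 1395 and 1900 bp at the 3 genes, while the mutant was absent from 1 of them.

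At Sox8, H2A.Z WT and H3K27me3 overlapped in part. Within 2 kb of the starts 750 bp of the H2A.Z WT bases lay in H3K27me3 (39.5%), and over the gene with 10 kb of flank, where further H2A.Z WT regions had no mark, 15.1% did. Of the 2 H3K27me3 domains within 2 kb of Sox8, the longer spanned 1550 bp and did not hold the start. The longest domain of every other gene with H3K27me3 was longer than this. The lincRNA 2810468N07Rik started 230 bp from Sox8. A H2A.Z AP3 region of 275 bp lay upstream of Sox8 beside the start of Lmf1, a protein-coding gene that starts 8488 bp from Sox8, and is not counted among the regions within 2 kb.

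At Sox9, the mutant regions were 50 and 150 bp long, each within a H2A.Z WT region and within H3K27me3, and only 25 bp of the second remained at 1e-12. The first lay 663 bp downstream of the start and the second 2763 bp downstream, the latter within 2 kb of a further transcript start of the gene. H3K27me3 at Sox9 was broken into 10 regions in the gene and flanks, most of which joined into a domain of 7200 bp that spanned the whole gene. The lincRNA BC006965 started 248 bp away on the opposite strand.

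Sox10 had 2 mutant regions, of 300 bp in the coding exon and 350 bp centred at -1881 bp relative to the start. Both had counterparts at 1e-12, where 500 bp of the window was still covered. Both lay mostly more than 1 kb from the starts, and a window of 1 kb on each side held 60 bp of mutant coverage. The coding region lay in H3K27me3 and the upstream region did not. The upstream region lay within an intron of the noncoding gene Gm10863, close to its start. That start lies 1551 bp from the Sox10 start, so the upstream region cannot be assigned to 1 of the genes. The start of Sox10 was poor in CpG, with 29 within 500 bp, as was that of Sox17, with 25.

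The SoxF genes Sox7, Sox17 and Sox18 act in endoderm and in blood and lymphatic vessels. Sox7 (chr14:64562511-64569569, plus strand) had 625 bp of its window in H2A.Z WT regions, 350 bp in mutant regions and 3290 bp in H3K27me3. Sox17 (chr1:4481009-4486494, minus strand), a defining factor of endoderm, had 1150 bp of wild-type coverage, no mutant region and 2957 bp of H3K27me3. Sox18 (chr2:181404541-181406345, minus strand), a regulator of lymphatic endothelium, had 1850 bp of wild-type coverage, 775 bp of mutant coverage and 3906 bp of H3K27me3. All 3 windows were more than 70% covered by H3K27me3, and Sox18 was the highest at 97.6%.

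Sox18 had the most mutant coverage of the list at 1e-9, whereas at 1e-12 Sox10 had more, with its region beside the Gm10863 start included. The mutant region of Sox18, of 775 bp, ran from the start into the coding sequence. It lay wholly in H2A.Z WT and in H3K27me3, and left 450 bp at 1e-12. H2A.Z WT covered 89.8% of the gene, the highest share, and H3K27me3 covered 100%. In the flank of Sox18, a H2A.Z WT region with a pair of mutant regions of 200 and 550 bp lay at the start of the neighbouring gene Tcea2, 8670 bp away, and carried no H3K27me3.

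Sox7 had the least H2A.Z WT within 2 kb of a start at 1e-9, and Sox11 the least at 1e-12. Its mutant region of 350 bp held the shared HMG box run, lay in H2A.Z WT and H3K27me3, and was absent from the 1e-12 list. The H2A.Z WT lists differed at Sox7 in an unusual way. At 1e-12 they covered 1000 bp, more than at 1e-9, because 2 upstream regions of 100 and 325 bp appeared at the stricter threshold alone. Sox7 was the only lineage Sox gene with such H2A.Z WT regions in the gene and flanks (16.4% of all genes had one). Both shared bases with H3K27me3.

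Sox17 differed in the side of the start that was covered. H2A.Z WT covered 1106 bp upstream and 44 bp downstream, whereas each of the other 8 genes had more downstream. The remaining H2A.Z WT of Sox17 lay in its coding exons 3 to 5 kb downstream, in regions of 1100 and 700 bp. No H2A.Z AP3 region was found in Sox17 at 1e-9, but at 1e-12 a region of 150 bp lay in the coding exon within H2A.Z WT and H3K27me3, the only strict-only mutant region of the 9 genes (10.4% of all genes had one). The region held the shared HMG box run. Its centre, chr1:4483186-4483215 on the minus strand, is shown for comparison with the coding centres above.
Sox17, 1e-12 list: agatctgcacaaCGcagagctaagcaagat

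Sox1, the SoxB1 member that marks neural progenitors, was placed at chr8:12395519 on the plus strand. The match puts it inside an intron of Gm5607, whose start lies 9748 bp upstream. Within 2 kb of the Sox1 start H2A.Z WT covered 1319 bp in 5 regions, H2A.Z AP3 150 bp and H3K27me3 475 bp. H3K27me3 was sparse at the start but covered 53.8% of the 20 kb around it. The upstream part lay in a joined domain of 14900 bp, which ranked 68th in length and ended shortly downstream of the start, and further regions lay beyond that domain. The mutant region within 2 kb was centred 1557 bp downstream of the start, coincided with a H2A.Z WT region of 150 bp and kept 100 bp at 1e-12. The excess of mutant calls on chromosome 8, given above, bears on this region, and the higher H2A.Z WT share there bears on the H2A.Z WT regions. Their part in the result was not tested. The bases around the Sox1 start and at the mutant centre are given because the gene was placed by sequence.
Sox1 start, chr8:12395504-12395533, plus strand: ctactccctccccaCGtcactCGccagCGc
Sox1 mutant centre, chr8:12397061-12397090, plus strand: accatcCGcaCGCGcatcctcacaaccCGc

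**Figure D2:**
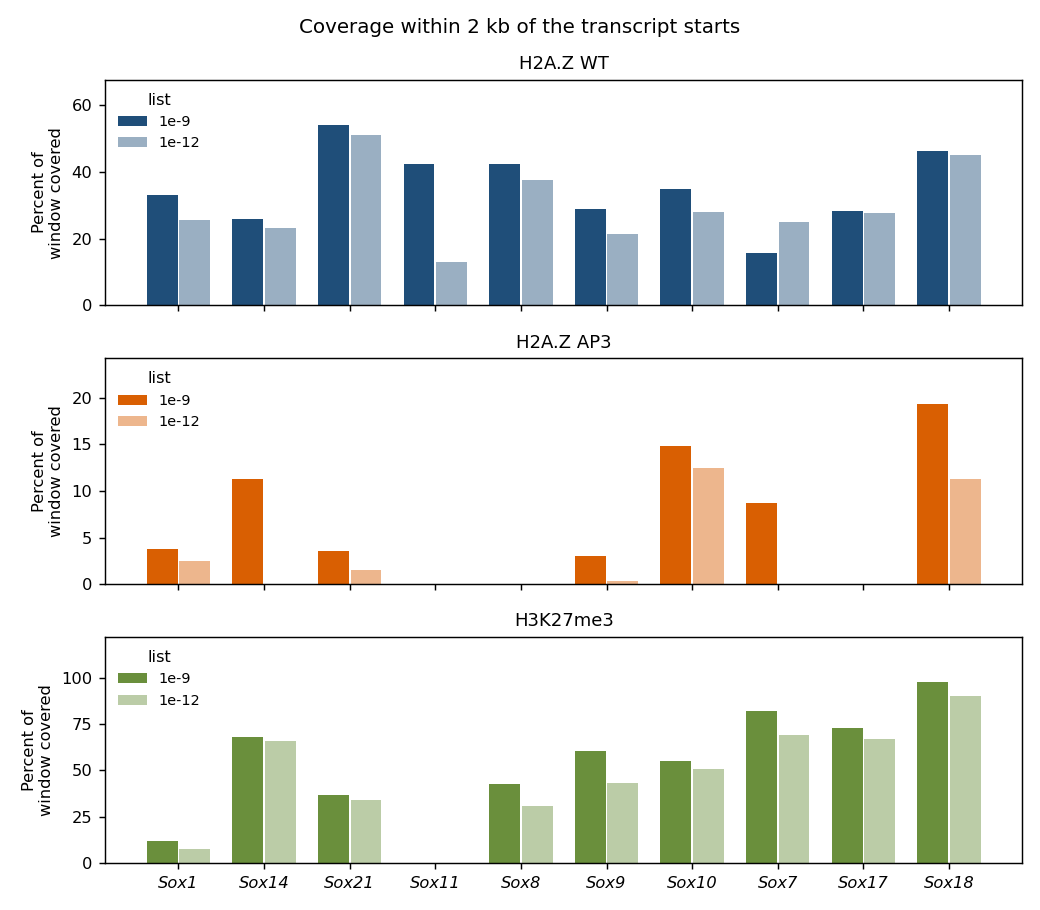
Percent of the bases within 2 kb of any transcript start that lay in enriched regions, for each gene and library, in the 1e-9 list (dark bars) and the 1e-12 list (pale bars), on a separate vertical scale for each library. H3K27me3 is highest at Sox18 (97.6%) and absent at Sox11, and H2A.Z AP3 reaches 19.4% at Sox18 and is at 0 in Sox11, Sox8 and Sox17.

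Across the 9 genes, the median window held 1700 bp of H2A.Z WT, 200 bp of H2A.Z AP3 and 2957 bp of H3K27me3, against medians of 300, 0 and 0 bp over all genes. Among genes with a region, the medians over all genes were 650, 200 and 1000 bp, and over the lineage Sox genes 1700, 425 and 2980 bp. Where a region was called, the median lineage Sox gene thus had more covered bases than the median gene in each library. They were also richer in CpG, as were all genes with both H2A.Z WT and H3K27me3, whose median was 59 CpG within 500 bp.

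At 1e-12 the H2A.Z WT and H3K27me3 counts were the same, 9 and 8 of 9 genes, against 60% and 15.7% of all genes. The mutant was called at 4 of 9, against 18.8% of all, with Sox14 and Sox7 no longer called. All 3 libraries were then called at 4 genes (5.53% of all), and H2A.Z WT with H3K27me3 but without the mutant also at 4 (9.4% of all). The mutant calls at Sox21, Sox9, Sox10 and Sox18 were thus made at both thresholds.

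The Sox genes outside the list, and the Gata and Pax families of developmental regulators, were examined in the same way. Of 9 other Sox genes, 6 had a H2A.Z WT region, 4 a H2A.Z AP3 region and 5 a H3K27me3 region. Sox2, Sox12 and Sox15 had none, and Sox4, of the same subfamily as Sox11, had H2A.Z WT and 25 bp of the mutant without H3K27me3 at 1e-9. At 1e-12 this reversed, with 150 bp of H3K27me3 and no mutant at Sox4. All 9 Pax genes had H2A.Z WT and H3K27me3 and 3 had the mutant. Of 6 Gata genes 5 had H2A.Z WT and H3K27me3, 2 had the mutant, and Gata1 had none. The mutant was therefore called at 6 of 9 lineage Sox genes, 3 of 9 Pax genes and 2 of 6 Gata genes, counts too small for a difference between families to be read from 1 library. Gata2 and Sox5, both with a mutant call, lie on chromosome 6, where such calls were in excess. Pax4 lies there too, without a mutant call. Without chromosomes 6 and 8 the mutant was called at 20.5% of all genes.

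**Figure D3:**
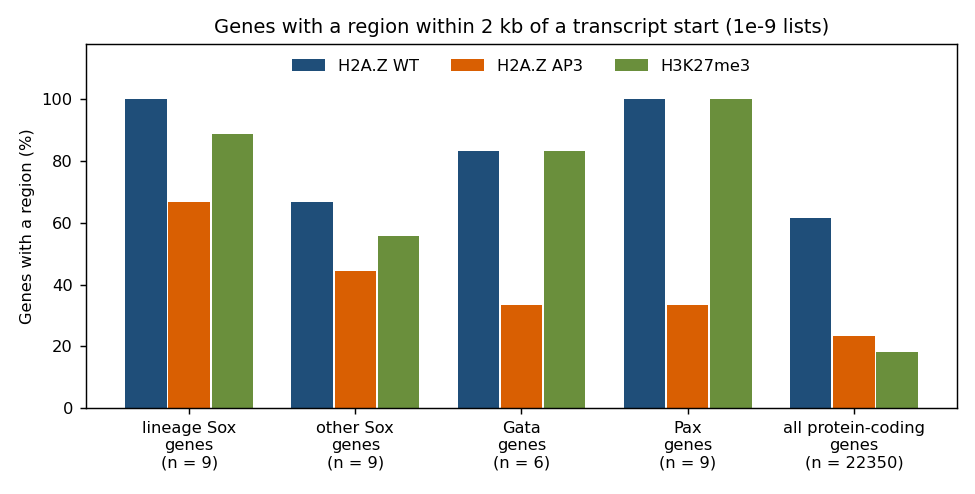
Percent of genes with a region within 2 kb of a transcript start in each library (bars) for the 9 lineage Sox genes, the other Sox genes, the Gata and Pax genes and all 22350 protein-coding genes. H3K27me3 was called at 88.9% of the lineage Sox genes and 100% of the Pax genes, and at 18.2% of all genes, whereas the mutant was present at 66.7% of the lineage Sox genes and 33.3% of the Pax genes.

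H2A.Z WT at these genes lay mostly downstream of the start, as it did over the genome. Within 2 kb of the most upstream start it covered 4045 bp upstream and 9100 bp downstream, so that 69.2% of bases were downstream, against 65.5% over all genes. For H2A.Z AP3 the values were 448 and 1997 bp, or 81.7% downstream against 57.1% over all genes, with Sox21 the only gene of the 6 with more upstream. For H3K27me3 they were 9051 and 11030 bp, or 54.9% against 61.9%. The base of the most upstream start itself lay in a region in 6 of the 9 genes with H2A.Z WT coverage, in 3 of the 8 with H3K27me3 coverage and in 2 of the 6 with mutant coverage, Sox21 and Sox18. Among all genes with coverage the start base was in a region at 43.9% for H2A.Z WT, 18.6% for H3K27me3 and 12.4% for H2A.Z AP3.

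Over the genes with 10 kb of flank, the 9 genes held 34 H2A.Z WT, 12 H2A.Z AP3 and 52 H3K27me3 regions. Both H2A.Z counts include regions at the starts of the neighbouring genes Lmf1 and Tcea2. Besides Sox7 and Sox17, described above, Sox8 was the only gene with a strict-only H3K27me3 region, of 100 bp (2.3% of all genes had one). Of the H2A.Z WT regions at 1e-9, 21 (61.8%) shared at least 1 base with H3K27me3, against 8.08% of the whole H2A.Z WT list. Of the same regions 10 (29.4%) shared bases with H2A.Z AP3, against 12.9% of the list. Conversely 11 of the 12 mutant regions (91.7%) lay on H2A.Z WT, against 73.0% of the mutant list, the exception being a 25-bp region upstream of Sox7. Of the mutant regions 6 shared bases with H3K27me3 (50%, against 11.2% of the list), and these were the 6 in coding exons. The whole lists are not limited to genes with 10 kb of flank. Of the 78359 H2A.Z WT regions, 21305 lay within 2 kb of a start. No share over the same span of all genes stands beside these values.

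The overlap of H2A.Z WT with H3K27me3 differed between the genes. Within 2 kb of the starts, 64.1% of the H2A.Z WT bases of the 9 genes lay in H3K27me3. The share was 100% in Sox17 and Sox18, 93.5% in Sox14 and 92% in Sox7. It was 76% in Sox9, 64.5% in Sox10, 54.2% in Sox21 and 39.5% in Sox8, and was 0 in Sox11. The median over the 8 genes with both was 84%, while over the 3864 genes with both in the same window it was 18.5%, with quartiles of 2.82% and 44.0%. This comparison was not matched for H3K27me3 coverage. Where called, H3K27me3 covered a median of 2980 bp at the lineage Sox genes and 1000 bp over all genes. Wider coverage leaves more bases at which H2A.Z WT can overlap it. Over the genes with 10 kb of flank the share was 53.6% in all, and it lay furthest below that in the window in Sox7 (38.3%), Sox18 (57.8%) and Sox8 (15.1%), whose more distant H2A.Z WT regions had no mark. At Sox1 it was 9.48% within 2 kb of the start and 64.8% over 10 kb on each side. The longest H3K27me3 domains, at Sox1, Sox14, Sox17, Sox21 and Sox9, were between 7200 and 14900 bp, those at Sox7, Sox10 and Sox18 between 4025 and 5300 bp.

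H2A.Z WT regions that shared bases with the mutant were longer and denser in CpG than those that did not. The 10 with H2A.Z AP3 had a median length of 888 bp, from 525 to 2125 bp, and a median of 79.0 CpG per kb. The 24 without had a median length of 488 bp, from 25 to 1475 bp, and a median of 45.8 CpG per kb. Over the whole H2A.Z WT list the corresponding medians were 525 against 225 bp and 35 against 25.7 CpG per kb. H3K27me3 was present at 7 of the 10 and at 14 of the 24. The regions with the mutant but without H3K27me3 lay at or beside the starts of neighbouring genes, Lmf1, Gm10863 and Tcea2. The medians include these regions. A longer region has more bases at which to meet another region, so length and overlap are not independent. Both Sox11 regions and the Sox17 regions of 1100 and 700 bp were dense in CpG with no mutant region at 1e-9, so the pattern did not hold for each region.

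**Figure D4:**
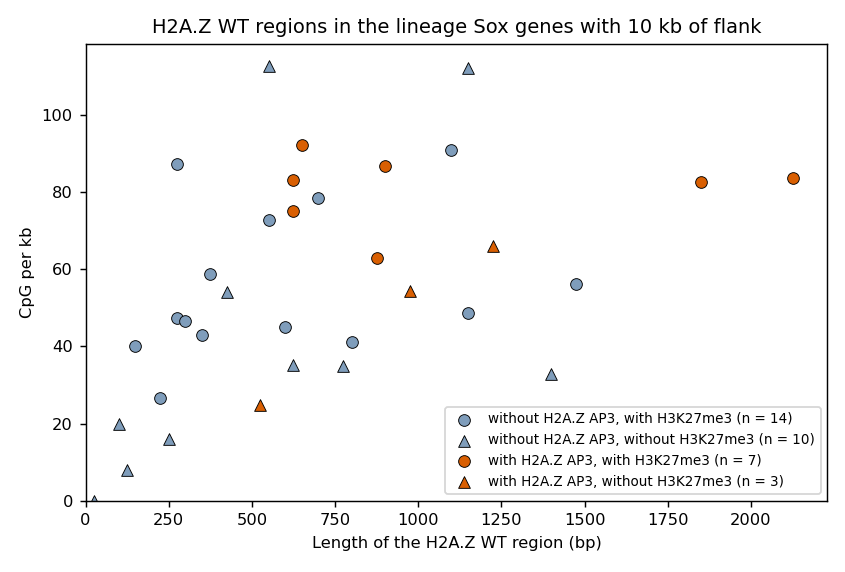
Length (bp) against CpG per kb of the 34 H2A.Z WT regions in the 9 genes with 10 kb of flank, each point a region, coloured by overlap with H2A.Z AP3 and shaped by overlap with H3K27me3. The regions with H2A.Z AP3 are all at least 525 bp long, and the 2 densest regions, both of Sox11, have neither H2A.Z AP3 nor H3K27me3.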

How the data were processed

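ChIP-Seq regions were analysed from 3 libraries of mouse ESCs, 1 each for tagged wild-type H2A.Z, the tagged AP3 mutant and H3K27me3, grouped by their labels. The authors aligned reads to mm9 with Bowtie 0.12.3, extended them, counted them in bins of 25 bp and called enriched bins in each library on its own, with a Poisson model at a P threshold of 1e-9 and a minimum enrichment over input. The deposited lists hold region starts and ends only. How the 1e-12 list was made is not given in the sources used here. The label and the methods name different H3K27me3 antibodies. Input and reads were not analysed here. A deeper library passes a P threshold at more places, so region counts and lengths mix depth with enrichment, and intervals for counting error could not be given.

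Windows of 2 kb on each side of every transcript start (GENCODE vM1, mm9), and genes with 10 kb of flank, were overlapped with the regions (minimum 1 bp) in Python 3.11.15 with NumPy 2.4.6, and drawn with Matplotlib 3.10.9. Code was checked on simulated regions. RefSeq promoters, from a table on another assembly, were matched by sequence to mm9, each at 1 place, for Sox1, Sox14, Sox21, Sox11 and Sox8, and only the Sox1 match was used. Printed sequences were read from mm9. No test was made, since each group has 1 library. All 10 genes were named, and the genes and lists were chosen with earlier results of these data known. Alternatives were the 1e-12 list, the union of lists, other windows and flanks, other starts, longer regions, other overlap criteria, leaving out chromosomes 6 and 8, and, added after seeing the data, the inclusion of Sox1.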

Additional observations from a re-analysis of the deposited data

How the results depend on the processing

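No paired analysis was possible because each group has 1 library and no test was made. Of the 9 genes, H2A.Z WT was called within 2 kb of a start at 9 and H3K27me3 at 8 in each alternative run. H2A.Z AP3 was called at 6 in each run except at 1e-12, where it was called at 4. With Sox1 included, which makes 10 genes, the counts were 10 for H2A.Z WT, 9 for H3K27me3 and 7 for H2A.Z AP3. Covered bases depended on the setting. H2A.Z WT covered 35.4% of the windows, 30.2% at 1e-12, 52.8% within 1 kb and 19.7% within 5 kb. H2A.Z AP3 covered 6.42%, then 2.60%, 9.24% and 2.81% in the same order. H3K27me3 covered 56.9%, then 49.2%, 63.4% and 33.9%, and 52.9% with Sox1 included, which was added after seeing the data. With other starts left out, which dropped the regions at Lmf1 and Tcea2, the genes with 10 kb of flank held 32 H2A.Z WT, 9 H2A.Z AP3 and 52 H3K27me3 regions. Without flank the genes held 18 H2A.Z WT, 7 H2A.Z AP3 and 25 H3K27me3 regions, and with 50 kb of flank 89 H2A.Z WT regions. The share of H2A.Z WT regions with H3K27me3 was 76.5% when a region within 1 kb was enough. The share of 1e-9 regions holding a 1e-12 region was 91.2% for H2A.Z WT (100% without flank) and 78.8% for H3K27me3 (95.3% for regions of at least 100 bp). With 50 kb of flank, 2 genes rather than 1 had strict-only H2A.Z WT regions, and 2 rather than 1 strict-only H2A.Z AP3 regions. The changes with window and flank follow from the bases included. Regions without heights or reads do not allow enrichment to be separated from depth.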

Other observations

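Most regions of the lineage Sox genes held a region at the stricter threshold. The whole lists set beside them here are not limited to genes with flank. Of their 34 H2A.Z WT regions at 1e-9, 31 held a 1e-12 region (91.2%, against 75.7% of the whole list), as did 8 of 12 H2A.Z AP3 regions (66.7%, against 55.4%) and 41 of 52 H3K27me3 regions (78.8%, against 67.7%). In the gene bodies, H2A.Z WT covered a median of 38.7% of the bases over the 9 genes, from 9.92% in Sox10 to 89.8% in Sox18, against 0.693% over all genes, and H3K27me3 from 0 in Sox11 to 100% in Sox18, against a median of 0. Sox18 and Sox14 are short genes and Sox10 is the longest of the 9, at 9578 bp. The comparison with all genes was not matched for gene length, and regions near a start fill more of a short gene. Within 2 kb of the starts the median H2A.Z WT share was 34.8% over the 9 genes and 4.12% over all genes, a smaller contrast.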
